A study of Bos taurus with 8 samples.

Results

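Acute phase proteins are plasma proteins that the liver releases in larger or smaller amounts during infection, injury and inflammation. Interleukin 6 acts on hepatocytes through its receptor and STAT3, and interleukin 1 and tumour necrosis factor act through NF-kB, while glucocorticoids strengthen many of these responses. In cattle, haptoglobin and serum amyloid A are the strongly induced members, whereas albumin and transthyretin are negative acute phase proteins that decline.

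The 10 genes described here were haptoglobin (HP), lipopolysaccharide-binding protein (LBP), C-reactive protein (CRP), orosomucoid 1 (ORM1), serum amyloid A3 (SAA3), hemopexin (HPX), the inter-alpha-trypsin inhibitor heavy chains ITIH3 and ITIH4, alpha-2-macroglobulin (A2M) and the interleukin 6 receptor (IL6R). They were chosen by name, and their probes were found through the RefSeq transcript that the array files give for each probe. All 10 genes had probes, 34 in all, out of 10860 genes with a detected probe. Detection of a probe required signal flagged well above background on 4 or more of the 8 arrays. All 34 probes were detected, and 31 were above background on every array.

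The livers came from 8 Japanese Black cattle fetuses at 8.5 months post-conception, with 1 array per fetus. The low-nutrition (LN) dams received 60% of their nutritional requirement throughout gestation and carried fetuses L5, L6, L8 and L9. The high-nutrition (HN) dams received 120% and carried fetuses L1, L2, L3 and L10. No dam was fed exactly to requirement, so each difference below is LN against a group fed above it. All fetuses were conceived with male-sorted semen from a single sire, and for the arrays the study took the LN fetuses of lowest and the HN fetuses of highest body weight, so diet and fetal size differed together. The series' design text speaks of RNA pooled by group, whereas the labels give each array its own fetus. They are treated here as separate animals.

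Between 32635 and 33371 spots of each LN array stood well above background, and between 33254 and 34369 of each HN array. None was saturated. The LN livers shared 1 slide and the HN livers a different one, so slide, scan and maternal diet cannot be told apart in any comparison. The hepatocyte markers checked the tissue label: 7 of 8 had a detected probe, and APOB had no matched probe. Their mean log2 signal lay between 17.94 and 18.02 in LN and between 17.94 and 18.03 in HN. All 7 also belong to the positive or negative acute phase lists used below. ALB, TTR, TF and APOA1 held ranks 2 to 39 of all probes, where quantile normalization leaves little room. The narrow range therefore says little about hepatocyte content. In whole tissue, fewer cells of a type and less RNA per cell cannot be told apart.

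No acute phase gene passed the corrected test between LN and HN. Of the 10860 genes, 0% passed an adjusted p of 0.05 (limma with Benjamini-Hochberg adjustment over 33439 probes, lowest adjusted p 0.634), and 0 of the 10 acute phase genes passed. At an unadjusted p of at most 0.05, 6.05% of all genes were called (3.3% higher and 2.75% lower in LN) and 0 of the 10. The groups did not overlap in 4.14% of all genes (2.59% higher and 1.56% lower in LN) and in 0 of the 10. Among the acute phase genes, 5 were higher in LN, against 51.6% of all genes, and 5 lower, against 48.4%, with a median difference of -0.004 (log2, LN minus HN) against 0.007 over all genes. By probe, 14 of the 34 were higher in LN, against 50.3% of all probes, and 20 lower, against 49.7%. HP and SAA3 were higher in LN by a log2 difference over 0.32, as were 7.82% of all genes. LBP and CRP were lower in LN by more than that, as were 8.63%, and none was lower by 2-fold, as were 0.571%. Each gene below is represented by its brightest detected probe, and signal is given as quantile-normalized log2 intensity, which can be compared between fetuses for a probe but not between probes.

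**Figure D1:**
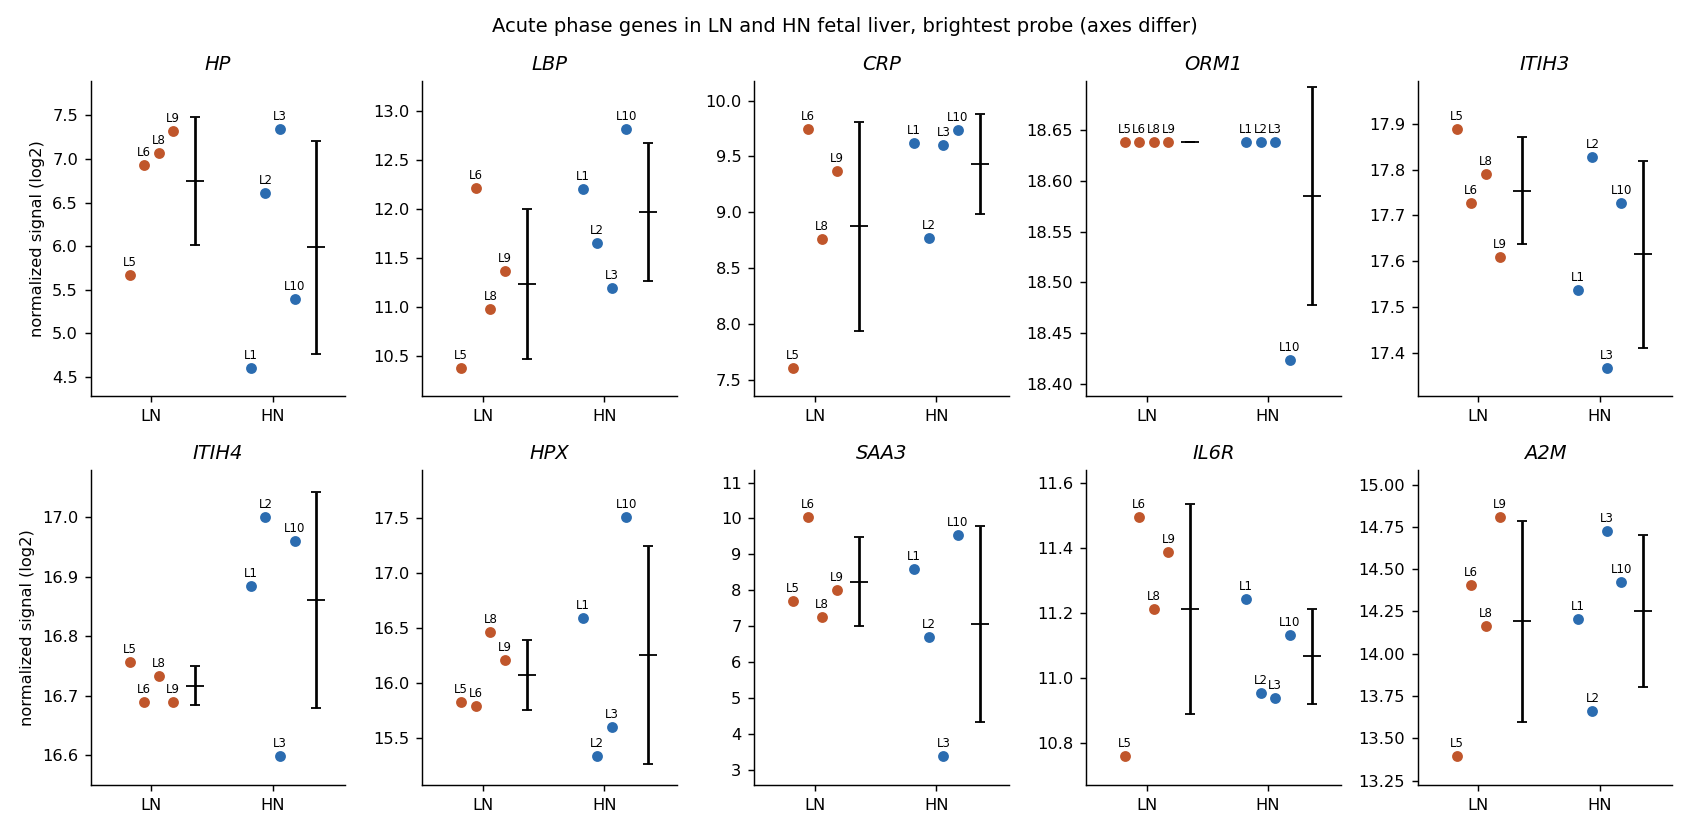
Normalized log2 signal of the brightest probe of each acute phase gene (y axis, its range set separately for each gene) in the 4 LN and 4 HN fetuses. Points are fetuses, and the bar and whiskers beside them are the group mean ± SD. In all 10 panels the LN and HN points overlap, and SAA3 covers the widest range, from 3.38 in L3 to 10.03 in L6.

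Haptoglobin binds free haemoglobin and keeps its iron from microbes. The HP probe (NM_001040470) read 5.67 in L5, 6.93 in L6, 7.07 in L8 and 7.32 in L9. In HN it read 4.61 in L1, 6.60 in L2, 7.35 in L3 and 5.39 in L10. The single highest value was thus an HN fetus, and 2 HN fetuses, L1 and L10, lay below every LN fetus. The means were 6.75 ± 0.73 in LN and 5.99 ± 1.22 in HN (SD, n = 4 each), a 1.69-fold higher LN mean that did not exceed the spread between fetuses (log2 difference 0.76, SE 0.60, exact permutation p = 0.286, two-sided, adjusted p = 0.852). The other 2 HP probes gave 0.75 and 0.58, and the 3 probes followed each other across fetuses with r between 0.972 and 0.984 (n = 8). The difference was 0.30 without L1 and 1.21 without L3. With normexp background correction it was 0.38.

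The HP values were set beside marker lists of other cell types. Of 15 listed markers of neutrophils and their precursors, 11 had a probe, all detected, and 10 of these 11 were higher in LN. Their mean log2 signal lay between 9.41 and 10.71 in LN and between 8.29 and 9.61 in HN, with the lowest values in L1 and L10, the fetuses lowest for HP. All 11 were well above background on every array. Myeloperoxidase (MPO), an enzyme of neutrophil granules, read 8.48, 9.12, 8.30 and 9.62 in L5, L6, L8 and L9 and 7.46, 7.79, 8.01 and 6.96 in L1, L2, L3 and L10. Its groups did not overlap (log2 difference 1.32, SE 0.33, exact permutation p = 0.0286, the smallest these 8 fetuses allow, adjusted p = 0.760). MPO had the lowest unadjusted p of the 11 markers and was picked after its value was seen. Of the 11, 3 did not overlap, all higher in LN, against 2.59% of all genes in that direction. The others overlapped, and lactotransferrin (LTF) was lower in LN, at -0.22. Across the 8 fetuses HP and the mean of the neutrophil markers had r = 0.850 and rho = 0.738. With the group means removed r was 0.863, and without L1 and L9 it was 0.730. This is 1 of 80 pairs of an acute phase gene and a marker list. In another, HP had r = -0.385 and rho = -0.762 with the mean of the stellate cell and fibroblast markers, and r = -0.788 without L2 and L3. The part of these cells in the HP values was not tested.

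By r over the 8 fetuses, TNFAIP6, a hyaluronan-binding protein that moves inter-alpha-trypsin inhibitor heavy chains onto hyaluronan, stood nearest to HP (r = 0.969), and PADI4, a peptidylarginine deiminase of neutrophils, came next (r = 0.964). Both were picked as the highest among 10860 genes, a selection that gives a high r by itself. The r of TNFAIP6 rests in part on 3 fetuses, L5, L1 and L10, in which it was not well above background. TNFAIP6 read 2.18, 4.71, 3.59 and 4.80 in LN fetuses L5, L6, L8 and L9 and 0.46, 3.61, 4.36 and 1.78 in HN fetuses L1, L2, L3 and L10. It was measured above background in L6, L8 and L9 and in L2 and L3 only, the values in the other 3 fetuses are bounds with no order among them, and the fitted log2 difference of 1.27 (adjusted p = 0.834) was 0.18 with normexp background correction.

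**Figure D2:**
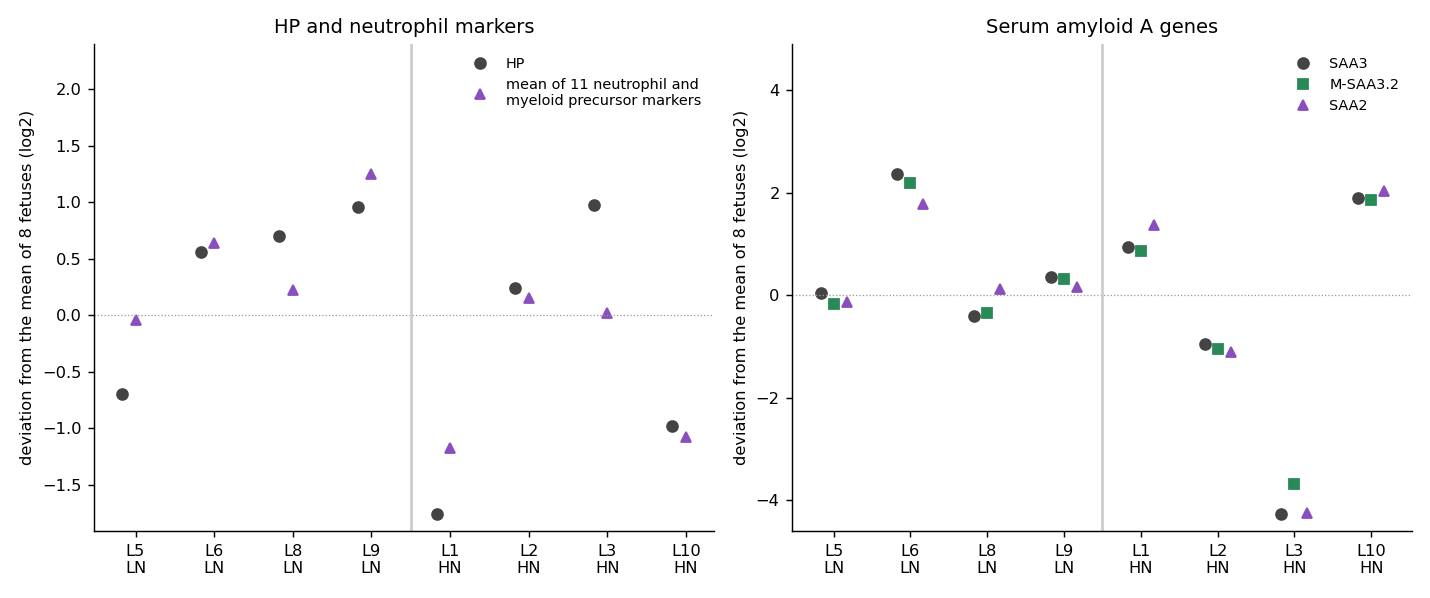
Deviation of the log2 signal from its mean over the 8 fetuses (y axis) in each fetus (x axis, LN left of the line and HN right of it). The left panel shows HP and the mean of 11 neutrophil markers, which are both lowest in HN fetuses L1 and L10. The right panel shows SAA3, M-SAA3.2 and SAA2, which are all lowest in HN fetus L3.

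Serum amyloid A proteins are small apolipoproteins carried on high-density lipoprotein during inflammation. SAA3 (NM_181016) varied more than any other acute phase gene. It read 7.69 in L5, 10.03 in L6, 7.24 in L8 and 8.01 in L9. In HN it read 8.60 in L1, 6.70 in L2, 3.38 in L3 and 9.55 in L10. The LN fetuses thus lay inside the HN range except L6, and L3 was far below all other fetuses. Its SD within groups (2.11, pooled over the 2 groups) was above that of 99.9% of all genes. The LN mean, 8.24 ± 1.23, was 2.28-fold the HN mean, 7.06 ± 2.73 (SD, n = 4 each), and this was the only acute phase gene past 2-fold, which 0.617% of all genes passed toward LN. The difference did not exceed the spread (log2 difference 1.19, SE 1.24, exact permutation p = 0.543, adjusted p = 0.891). Without L3 it was -0.04, and without L10 it was 2.02. With normexp background correction it was 0.55.

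The 4 SAA3 probes followed each other across fetuses (r 0.980 to 0.998), and 3 of them fell short of the background limit in L3 only. The SAA paralogues varied in the same way. M-SAA3.2, the mammary form of serum amyloid A3, read 6.61, 8.98, 6.44 and 7.11 in L5, L6, L8 and L9 and 7.66, 5.73, 3.1 and 8.65 in L1, L2, L3 and L10 (r with SAA3 0.997). SAA2 read 4.82, 6.72, 5.07 and 5.11 in LN and 6.31, 3.83, 0.69 and 6.97 in HN, the fetuses listed as before (r = 0.984), and its L3 value was not above background. Both paralogues were lowest in L3, as SAA3 was. These 2 were the genes most like SAA3 of all detected genes. The paralogues are close in sequence, and whether a probe reads more than its own transcript was not determined, so the 3 genes do not count as separate evidence. HP and SAA3, the major acute phase genes of cattle, did not follow each other across fetuses, since r was -0.449 over the 8 fetuses (rho -0.500). L3 was highest for HP and lowest for SAA3.

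LBP carries bacterial lipopolysaccharide to CD14 on myeloid cells. Its probe (NM_001038674) read 10.39 in L5, 12.21 in L6, 10.99 in L8 and 11.37 in L9. In HN it read 12.20 in L1, 11.65 in L2, 11.20 in L3 and 12.82 in L10. The lowest 2 values were LN fetuses, but L6 was the second highest of all 8. The HN mean, 11.97 ± 0.70, was 1.66-fold the LN mean, 11.24 ± 0.76 (SD, n = 4 each), within the spread between fetuses (log2 difference -0.73, SE 0.44, exact permutation p = 0.229, adjusted p = 0.813). All 5 LBP probes were lower in LN, by -0.98 to -0.73. Of these, 2 had an unadjusted p of at most 0.05 against 6.32% of all probes, both with an adjusted p of 0.760 and with exact permutation p of 0.0571 and 0.0857. They were the only 2 of the 34 acute phase probes at that limit. The 5 LBP probes followed each other across fetuses (r 0.818 to 0.998), so they are not separate evidence. Averaged over its 5 probes, LBP gave -0.82 (adjusted p = 0.718). Leaving out L6 gave -1.05 (adjusted p = 0.761), the only omission that brought an acute phase gene to an unadjusted p under 0.05, and leaving out L5 gave -0.44.

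CRP, a pentraxin that binds phosphocholine on microbes and damaged cells, gave 7.61 in L5, 9.75 in L6, 8.76 in L8 and 9.37 in L9 (NM_001144097). In HN it gave 9.62 in L1, 8.77 in L2, 9.61 in L3 and 9.74 in L10. L5 was lowest of all, and L6 was level with the highest HN fetuses. The means were 8.87 ± 0.93 in LN and 9.43 ± 0.45 in HN (SD, n = 4 each), a log2 difference of -0.56 (SE 0.44, exact permutation p = 0.343, adjusted p = 0.851). All 4 CRP probes were lower in LN, by -0.66 to -0.51. Without L5 the difference was -0.14. LBP and CRP went together across fetuses (r = 0.793, rho = 0.881, n = 8, and r = 0.556 without the 2 fetuses farthest from the LBP median).

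**Figure D3:**
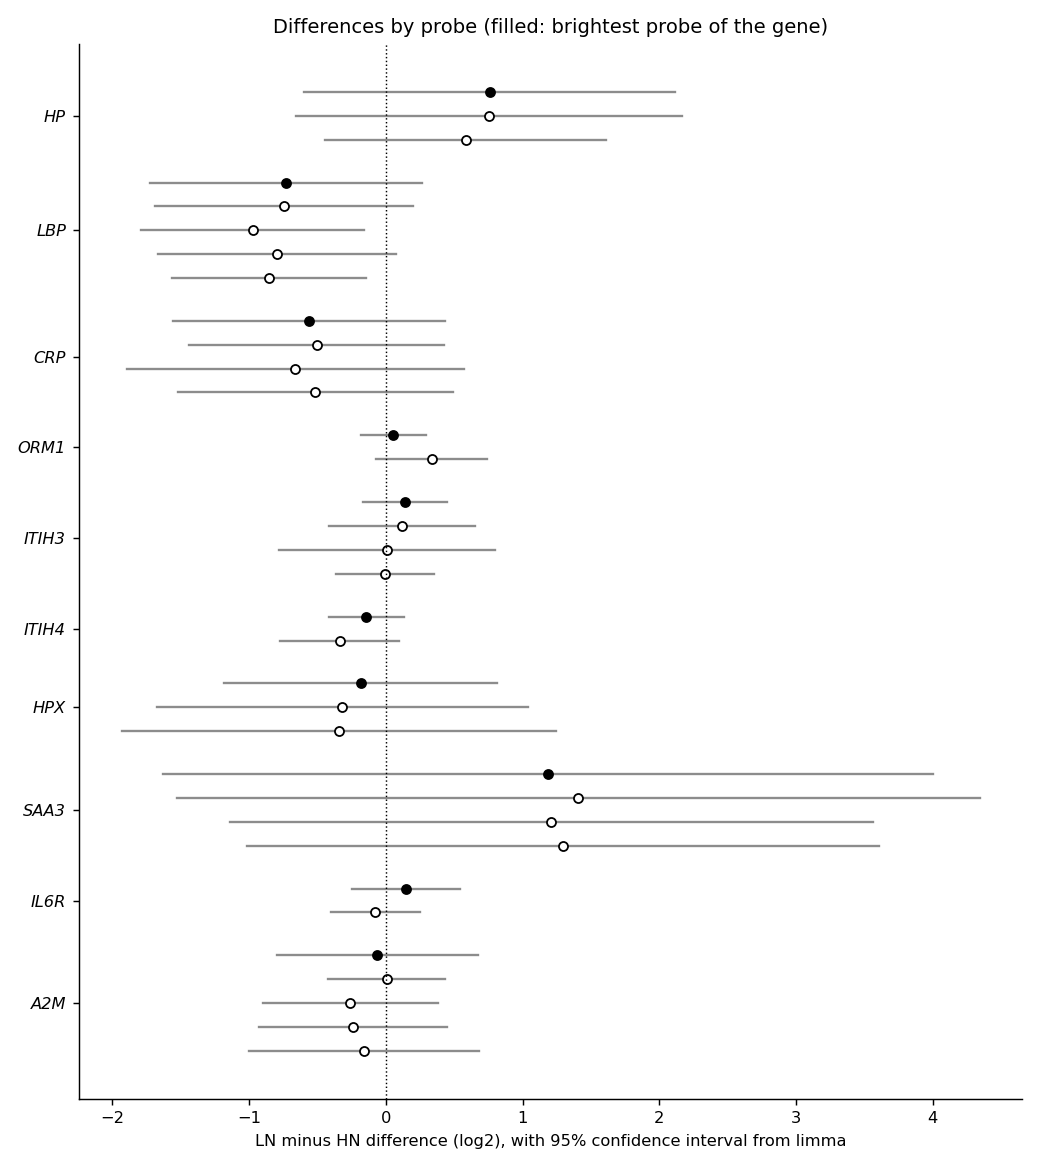
LN minus HN difference in log2 signal (x axis) of each of the 34 probes of the 10 acute phase genes, with its 95% confidence interval from limma. Filled points are the brightest probe of each gene and open points the others. The 5 LBP probes lie left of 0 and the 3 HP probes right of it, while ITIH3, IL6R and A2M have probes on both sides.

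ORM1 encodes alpha-1-acid glycoprotein, a drug-binding plasma protein. Its brightest probe (NM_001040502) held the highest rank of all probes on 7 arrays and was rank 3 in L10. Quantile normalization therefore gave it the same value, 18.64, in 7 fetuses and 18.42 in L10, and its difference of 0.05 (exact permutation p = 1.0, adjusted p = 0.945) carries little information. Scaled instead to the 75th percentile of each array, it read 18.24, 19.09, 18.53 and 18.93 in L5, L6, L8 and L9 and 18.58, 18.37, 18.69 and 18.58 in L1, L2, L3 and L10. On that scale the groups overlapped, with a log2 difference of 0.14 (exact permutation p = 0.486, adjusted p = 0.862). The second ORM1 probe, quantile-normalized, read 17.33, 17.90, 17.61 and 17.71 in LN and 17.61, 17.29, 17.39 and 16.93 in HN, the fetuses listed as before. L10 was lowest for it too, and its difference was 0.33 (SE 0.18, exact permutation p = 0.143, adjusted p = 0.793).

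Hemopexin binds free haem. HPX (NM_001034612) read 15.83 in L5, 15.79 in L6, 16.46 in L8 and 16.21 in L9, and 16.59 in L1, 15.34 in L2, 15.60 in L3 and 17.50 in L10. The HN fetuses spanned the whole LN range, from the lowest value, L2, to the highest, L10. The log2 difference was -0.19 (SE 0.44, exact permutation p = 0.829, adjusted p = 0.955), and its sign rested on L10, without which it was 0.23. The 3 HPX probes gave -0.35 to -0.19 and followed each other with r between 0.849 and 0.972.

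Inter-alpha-trypsin inhibitor heavy chains such as ITIH3 bind hyaluronan in the extracellular matrix. ITIH3 (NM_001101898) read 17.89, 17.73, 17.79 and 17.61 in L5, L6, L8 and L9 and 17.54, 17.83, 17.37 and 17.73 in L1, L2, L3 and L10, a log2 difference of 0.14 (SE 0.14, exact permutation p = 0.314, adjusted p = 0.883). Its 4 probes ranged from -0.01 to 0.14, with r between probes as low as 0.154, and the difference of the brightest was 0.057 without L3. On the quantile scale the LN fetuses of ITIH4 (NM_001015590) stood close together, at 16.76, 16.69, 16.73 and 16.69, beside 16.88, 16.9997, 16.60 and 16.96 in HN. Only L3 among the HN fetuses lay below them, and the log2 difference was -0.14 (SE 0.12, exact permutation p = 0.171, adjusted p = 0.862), or -0.23 without L3. This probe held ranks 112 to 178 of all probes, and L6 and L9, both at rank 162, were given the same value. Scaled instead to the 75th percentile, L5, L6, L8 and L9 read 16.61, 16.88, 16.66 and 16.83. On that scale the log2 difference was -0.09 (exact permutation p = 0.543, adjusted p = 0.882). The second ITIH4 probe gave -0.34 (SE 0.19, exact permutation p = 0.257, adjusted p = 0.799). ITIH4 varied across fetuses with the mean of 6 stellate cell and fibroblast markers (r = 0.882, rho = 0.946, n = 8, and 0.771 without the 2 farthest fetuses). That mean lay between 12.62 and 12.98 in LN and between 12.38 and 13.75 in HN, and 5 of the 6 markers were lower in LN. The part of these cells in the ITIH4 values was not tested.

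A2M is a broad protease inhibitor of plasma. It read 13.39 in L5, 14.41 in L6, 14.16 in L8 and 14.81 in L9, and 14.21 in L1, 13.66 in L2, 14.73 in L3 and 14.42 in L10 (NM_001109795). The lowest and the highest fetus were both LN, and the difference was -0.06 (SE 0.32, exact permutation p = 0.886, adjusted p = 0.982). Its 5 probes gave -0.26 to 0.00, and its sign changed without L5, to 0.20, and without L3, to 0.10. A2M went with CRP across fetuses (r = 0.824, rho = 0.571) and against ITIH3 (r = -0.752, rho = -0.802).

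IL6R, the receptor through which interleukin 6 reaches hepatocytes, read 10.76, 11.49, 11.21 and 11.39 in L5, L6, L8 and L9 and 11.24, 10.95, 10.94 and 11.13 in L1, L2, L3 and L10 (NM_001110785). The means were 11.21 ± 0.32 in LN and 11.07 ± 0.15 in HN (SD, n = 4 each), with a log2 difference of 0.15 (SE 0.17, exact permutation p = 0.429, adjusted p = 0.908). Its second probe gave -0.08. The difference was 0.30 without L5 and 0.052 without L6. The lowest LN fetus, L5, lay below all HN fetuses and the 2 highest LN fetuses lay above them.

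The acute phase genes differed in how much they varied between fetuses of the same group. Against a median SD within groups of 0.23 over all genes, the pooled SD was 2.11 for SAA3, 1.01 for HP, 0.73 for each of HPX, LBP and CRP and 0.53 for A2M. These 6 lay at or above the 89.2nd percentile of all genes. IL6R, ITIH3, ITIH4 and ORM1 had SDs of 0.25, 0.17, 0.13 and 0.08, and that of ORM1 is set by its rank. The ITIH3 and ITIH4 probes held ranks 32 to 69 and 112 to 178, so their SDs also depend on the scaling. In LN the SD of ITIH3 was 0.12, or 0.19 on 75th percentile scaling, and that of ITIH4 was 0.03, or 0.13. In HN they were 0.20, or 0.22, and 0.18, or 0.21. The same fetus was not extreme for every gene. L5 was lowest for LBP, CRP, IL6R and A2M, and L3 was lowest for ITIH3, ITIH4 and SAA3. L6 was highest for CRP, SAA3 and IL6R, and L10 was highest for LBP and HPX.

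Markers of other blood cells also differed between fetuses. All 8 detected erythroid markers of 12 listed were higher in LN, with a mean log2 signal between 8.47 and 12.15 in LN and between 7.29 and 9.40 in HN. The 12.15 belonged to L5, the fetus lowest for LBP, CRP, IL6R and A2M. CRP and the erythroid mean had r = -0.716 but rho = -0.095 over the 8 fetuses, and r = 0.793 without L5 and L1. With the lymphoid mean CRP had r = 0.684 and rho = 0.714, A2M r = 0.565 and rho = 0.714, and ITIH3 r = -0.684 and rho = -0.743. HPX and the hepatocyte mean, itself made of acute phase genes, had r = 0.734 and rho = 0.762, and r = 0.478 without L3 and L10. None of the 5 detected lymphoid markers was higher in LN (means of 9.19 to 9.49 in LN and 9.35 to 9.72 in HN). The macrophage and Kupffer cell markers, 1 of 8 higher in LN, had means of 12.63 to 13.29 in LN and 12.61 to 13.45 in HN. The part of these cells in the acute phase values was not tested.

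By Pearson's r over the 8 fetuses among all detected genes, each acute phase gene had its own closest neighbours, given here as a description. Taking the 2 highest r among 10860 genes over 8 fetuses gives high values by selection alone. LBP lay closest to IDH2, the mitochondrial isocitrate dehydrogenase (r = 0.948), and APOA4, an apolipoprotein (r = 0.946). CRP lay closest to HRAS (r = 0.977) and WIPI2 (r = 0.976), and A2M to LARP4B (r = 0.986) and CCDC43 (r = 0.969). For HPX the closest were PLEKHA4 (r = 0.934) and CARD14 (r = 0.931), and for IL6R they were EGLN3, an oxygen-sensing prolyl hydroxylase (r = 0.971), and KAT7 (r = 0.965). ITIH3 lay closest to FAM118B (r = 0.972) and UXS1 (r = 0.968), ITIH4 to KLHDC3 (r = 0.967) and MAGI3 (r = 0.962), and ORM1, with its tied values, to ZNF207 (r = 0.972) and BCL2L15 (r = 0.971). The number of genes with r of at least 0.9 ran from 6 for SAA3 to 102 for A2M.

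**Figure D4:**
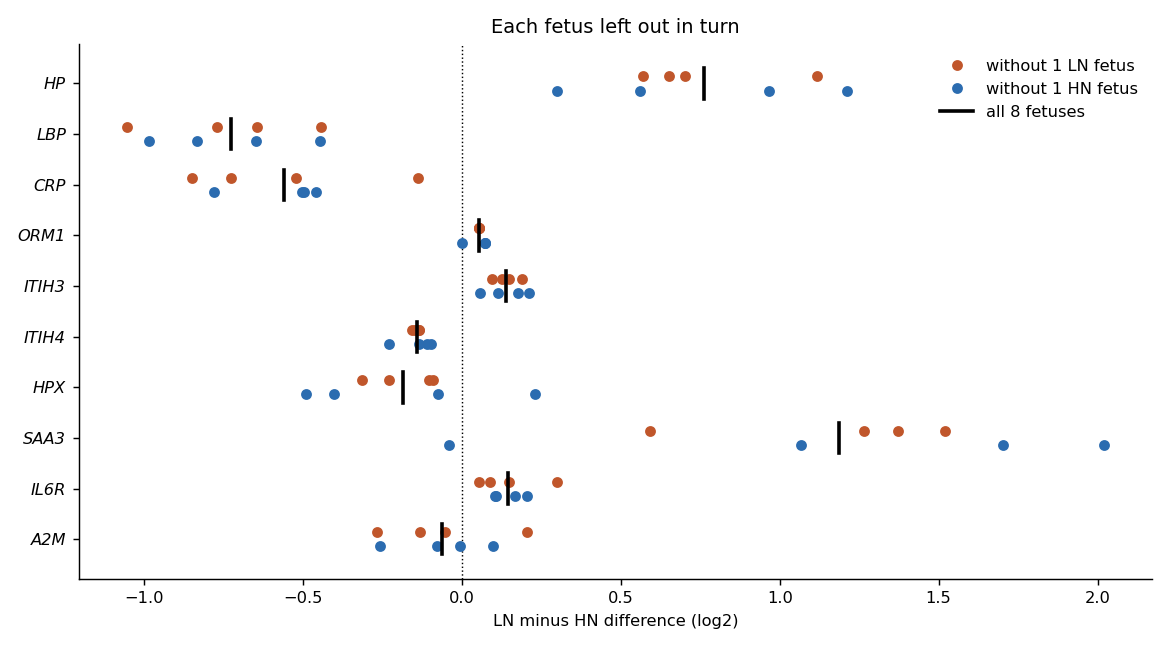
LN minus HN difference in log2 signal (x axis) of each acute phase gene with all 8 fetuses (black bar) and with each LN or HN fetus left out in turn (coloured points). SAA3 ranges from -0.04 without L3 to 2.02 without L10, HPX and A2M cross 0, and HP, LBP and CRP keep their sign.

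The other genes of the acute phase pathway were set beside the 10. Of 24 further positive acute phase genes 18 had a matched probe, all detected, with 6 higher and 12 lower in LN and a median difference of -0.07. The antichymotrypsin-like serpin SERPINA3-3 was the only detected one of them with an unadjusted p of at most 0.05 (log2 difference -0.54, SE 0.23, adjusted p = 0.785), that is 1 of 18 against 6.05% of all genes. Ceruloplasmin (CP), the copper-carrying ferroxidase, gave -0.94 (SE 0.67, exact permutation p = 0.314), with all 4 of its probes lower in LN, and was -0.50 without L6 and -0.57 without L10. Complement C9 gave -0.70 (SE 0.34) and the iron hormone hepcidin (HAMP) -0.55 (SE 0.59). In the other direction, M-SAA3.2 gave 0.999 (SE 1.12) and SAA2 0.98 (SE 1.23), or -0.062 and -0.28 without L3 and 0.31 and 0.036 with normexp background correction. The pentraxins PTX3 and APCS gave 0.52 (SE 0.48) and 0.52 (SE 0.42). The fibrinogen chains FGA, FGB and FGG gave -0.06, -0.02 and 0.11.

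Of 9 negative acute phase genes 8 had a matched probe, all detected, with 4 higher and 4 lower in LN and a median of -0.02. Albumin (ALB), transthyretin (TTR), transferrin (TF) and apolipoprotein A1 (APOA1) lay between 0.00 and 0.04. Their probes held ranks 2 to 39 of all probes, where quantile normalization leaves little room, but scaled to the 75th percentile they lay between 0.01 and 0.05 (SE 0.15 to 0.17). Paraoxonase 1 (PON1), an esterase of high-density lipoprotein, gave -1.25 (SE 0.63, exact permutation p = 0.143, adjusted p = 0.787), the only gene of this list past 2-fold. It was within 2-fold without L10, at -0.72, and without L6, at -0.84, and was -0.59 with normexp background correction. Histidine-rich glycoprotein (HRG) gave -0.39 (SE 0.33), and retinol-binding protein 4 (RBP4) gave -0.23 (SE 0.16). Leaving out single fetuses moved HRG between -0.63 and -0.14 and RBP4 between -0.37 and -0.14.

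Interleukin 6 itself (IL6) had a probe that was not detected, as had SOCS3, OSM and LIF, and 7 of the 17 listed genes of this signalling family were detected. STAT3, its main transcription factor, gave 0.07 (SE 0.30). The kinase JAK1 was the only gene of the related lists whose groups did not overlap, with every LN fetus above every HN fetus (log2 difference 0.17, SE 0.11, exact permutation p = 0.0286, adjusted p = 0.823), but 1 of its 4 probes gave -0.20. Over all genes 2.59% lay without overlap in that direction. The kinase TYK2 gave -0.41 (SE 0.32), and the receptors OSMR and IL11RA gave 0.28 (SE 0.24) and -0.19 (SE 0.16). Leaving out single fetuses moved TYK2 between -0.61 and -0.22, OSMR between 0.11 and 0.45 and IL11RA between -0.29 and -0.08. For interleukin 1, tumour necrosis factor and lipopolysaccharide signalling 20 of 21 genes were detected, 8 higher and 12 lower in LN. The cytokine IL1A, the NF-kB inhibitor NFKBIA and the kinase IRAK1 were farthest from 0 among them, at 0.27 (SE 0.32), -0.24 (SE 0.31) and 0.22 (SE 0.27). IRAK1 changed sign under 75th percentile scaling, was not well above background in L3 and was 0.0056 without L3. Leaving out single fetuses moved IL1A between 0.077 and 0.51 and NFKBIA between -0.53 and -0.035. The transcription factors of acute phase genes had 5 higher and 5 lower, with FOXA3 at 0.29 (SE 0.20), and the glucocorticoid receptor NR3C1 gave 0.15 (SE 0.16). Over single omissions FOXA3 lay between 0.19 and 0.46 and NR3C1 between 0.044 and 0.24.

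Genes that respond to or produce glucocorticoid signals had 2 of 7 higher and 5 lower in LN, with a median of -0.26. Without L5 this median was 0.042, and over the other omissions it stayed below 0. HSD11B1, the enzyme that regenerates active cortisol, read 8.03, 9.10, 9.63 and 9.27 in L5, L6, L8 and L9 and 10.80, 10.15, 9.34 and 9.74 in L1, L2, L3 and L10. The groups overlapped through L3 and L8 (log2 difference -0.999, SE 0.40, exact permutation p = 0.0571, adjusted p = 0.783), and it was the only 1 of the 7 with an unadjusted p of at most 0.05, against 6.05% of all genes. Of the glucocorticoid-induced genes of the list, FKBP5 and ZBTB16 gave 0.53 (SE 0.33) and 0.46 (SE 0.25), while DUSP1, SGK1, TSC22D3 and KLF9 gave -0.40 (SE 0.54), -0.31 (SE 0.22), -0.26 (SE 0.26) and -0.21 (SE 0.41). Haem handling genes had 5 of 9 higher in LN, with the haemoglobin scavenger receptor CD163 at -0.27 (SE 0.25), haem oxygenase 2 (HMOX2) at 0.19 (SE 0.13) and the iron exporter SLC40A1 at 0.15 (SE 0.17). SLC40A1 lay between 0.047 and 0.28 over single omissions. The rest of the inter-alpha-trypsin inhibitor family had 4 of 5 higher, with TNFAIP6 given above, ITIH1 at -0.32 (SE 0.23) and ITIH5 at 0.27 (SE 0.52). ITIH5 was 0.017 without L3 and 0.72 without L2, and single omissions moved ITIH1 between -0.54 and -0.16. Other plasma protease inhibitors had 3 of 5 higher, with SERPINA10 at -0.26 (SE 0.16), SERPIND1 at -0.11 (SE 0.15) and SERPINF2 at 0.08 (SE 0.11). The sign of SERPIND1 changed without L5, to 0.012. In the haem, inter-alpha-trypsin inhibitor and protease inhibitor lists 0 genes passed an unadjusted p of 0.05.

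**Figure D5:**
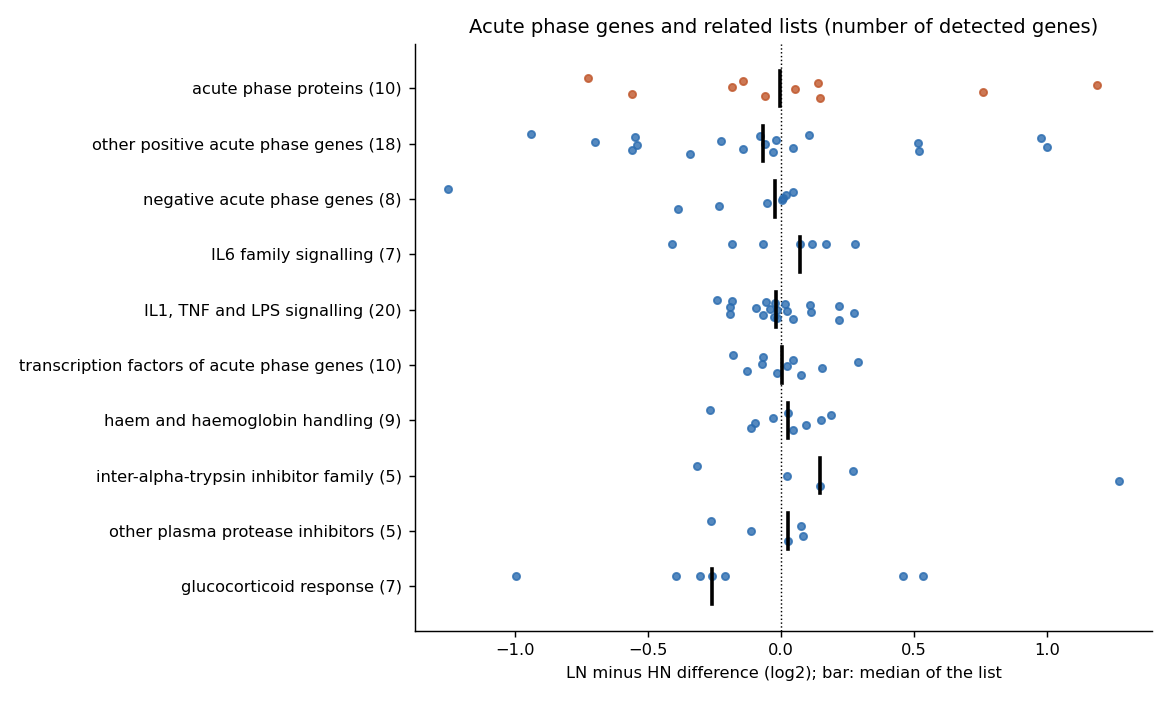
LN minus HN difference in log2 signal (x axis) of the 10 acute phase genes and of the detected genes of 9 related lists (number detected in brackets), with each point a gene and each bar a list's median. Medians lie between -0.26 for the glucocorticoid list and 0.15 for the inter-alpha-trypsin inhibitor family, which became 0.042 without L5 and 0.017 without L3, respectively.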

How the data were processed

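Cy3-labelled liver RNA from 8 fetuses was hybridized to Agilent bovine 4 × 44K arrays. The authors used Agilent Feature Extraction 11.0.1.1 (per the submitters' processing notes) and deposited probe intensity values with background and outlier flags, and a separate log2 table quantile-normalized by them (31068 probes), used as an alternative. Here log2 of the deposited processed intensity was taken, control and outlier spots were removed, spots of a probe were averaged, and 43637 probes were quantile-normalized. RefSeq transcripts named 26740 probes, covering 12603 genes. The LN minus HN difference of each of 33439 detected probes was fitted with limma 3.58.1 (R 4.3.3), two-sided, with Benjamini-Hochberg adjustment, and with exact permutation of the fetuses for single values. Each gene is represented by its brightest detected probe. The genes named are the 10 members and, in each related list, any without overlap and up to 3 others with the largest differences, and the 2 genes most like each member. SERPINA3-3, C9, HAMP, PTX3, APCS, the fibrinogen chains, ALB, TTR, TF, APOA1, STAT3, DUSP1, SGK1, TSC22D3, KLF9 and MPO were added after their values were seen. A gene that this rule names is not reported here. The members and lists were chosen with earlier results of these data known. The limma script was tested on simulated data. The number of arrays, 8, limits precision. Alternatives were 75th percentile scaling, normexp correction, the authors' log2 table, other probe choices and filters, eBayes with trend, array position as a block, and leaving out each fetus. No genome coordinates or probe sequences were used.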

Additional observations from a re-analysis of the deposited data

Results flagged for a closer look

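Within-group outliers were looked for in 74 groups of 4 fetuses over 37 genes, where chance flags about 1 in 20 groups, and 6 were found. Among the acute phase genes, CRP in HN fetus L2 was 8.77, below the other HN fetuses at 9.61 to 9.74. ORM1 in HN fetus L10 was 18.42, against 18.64 in the other HN fetuses, whose values the quantile step made equal. In the related lists, SAA2 in LN fetus L6 was 6.72, above 4.82 to 5.11 in the others. PON1 in LN fetus L6 was 3.40, below 4.93 to 5.09. The haem oxygenase HMOX2 in LN fetus L8 was 13.67, above 13.34 to 13.37. SERPIND1 (heparin cofactor II) in LN fetus L5 was 16.03, below 16.48 to 16.57.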

How the results depend on the processing

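Of 618 values of 39 gene differences and counts, 608 kept their direction and side of the threshold, and 8 turned in sign. The medians of 10 gene lists, which have no test, turned in sign in 28 of 160 values, over 7 of the lists. Leaving out single fetuses moved the median of the acute phase genes between -0.040 and 0.084 and that of the glucocorticoid list between -0.45 and 0.042. Under every setting 0 acute phase genes passed an adjusted p of 0.05, and the count at an unadjusted p of at most 0.05 was 0, or 1 without L6, when LBP passed. Leaving out single fetuses moved HPX between -0.49 and 0.23, SAA3 between -0.040 and 2.02, A2M between -0.27 and 0.20, ORM1 between 0 and 0.072, M-SAA3.2 between -0.062 and 1.79, SAA2 between -0.28 and 1.82 and SERPIND1 between -0.18 and 0.012. IRAK1 was -0.0068 under 75th percentile scaling, which moved the median of all probes from 0.00 to -0.06. Normexp correction, with its offset of 50, took TNFAIP6 to 0.18, SAA2 to 0.036, M-SAA3.2 to 0.31 and PON1 to -0.59, and IRAK1, SAA2 and TNFAIP6 had no value in the authors' table or with detection on all 8 arrays. The cause was not tested. The mean over its probes took JAK1 to 0.03. The LN and HN fetuses share no replicate numbers, so no fit paired by replicate was made. Array position on the slide as a block changed no call (HP adjusted p = 0.940).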
